A study of Rattus norvegicus with 16 samples.

Results

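The receptors of the interleukin-6 (IL-6) family, the transcription factor STAT3 that they activate, its inhibitor SOCS3 and the C/EBP transcription factors were described in the rat diaphragm. The 9 genes were chosen by name: Il6r, Il6st, Cntfr, Lifr, Osmr, Stat3, Socs3, Cebpb and Cebpd. All 9 were found by symbol in the array's probe-to-gene table, with 1 transcript cluster each, among 23188 clusters. RNA came from the diaphragms of 16 male Wistar rats aged 14 to 16 weeks and was hybridized to 16 Clariom S arrays, 4 per group. CON rats were not ventilated, and their diaphragm was taken straight after anaesthesia was given. V12 rats had a tracheostomy and 12 h of mechanical ventilation under urethane. S-V12 rats (sham operation) had in addition a laparotomy with electrodes placed in the diaphragm, without current, and extra oxygen. E-V12 rats had the same operation and oxygen with electrical stimulation throughout the 12 h. V12/CON therefore held ventilation, tracheostomy, anaesthesia and elapsed time together, and S-V12/V12 held operation and oxygen together; within each pair these cannot be told apart. The muscle was minced as a whole, so the samples are mixtures of its cell types. The methods say that tissue around the electrodes was removed for the specimen, which leaves unclear whether it was discarded or used.

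IL-6 family cytokines bind receptors that share the signalling chain gp130, the product of Il6st. Janus kinases attached to gp130 then phosphorylate STAT3, which enters the nucleus and switches on its target genes, among them Socs3, whose protein inhibits the same receptors and kinases. The C/EBP factors encoded by Cebpb and Cebpd take part in the acute-phase response that IL-6 drives, and in muscle the IL-6 and STAT3 pathway is known from studies of wasting as well as of regeneration.

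Promoter windows of the RefSeq table for the rat build GRCr8, which run from 250 bases before to 50 after a start site, were matched for 7 of the 9 genes (not Cntfr and Cebpd). The STAT palindrome TTCNNNGAA and the C/EBP letters TTGCNNAA, each searched on both strands, had 0 matches in the 7 windows. Of all 33469 windows in the table, 8.87% held the first and 10.6% the second. The window of Cebpb is shown because its start is the outer end of the gene. In the other 6 genes the table's start lay inside the gene. The distance was 154 bases in Stat3, 241 in Osmr, 1207 in Socs3, 1496 in Il6r, 11360 in Il6st and 11602 in Lifr. For these 6 genes the windows hold little or none of the sequence before the outer end. The 0 matches therefore do not describe that sequence. The 250 bases before the Cebpb start, chr3:176816755-176817004 on the plus strand, are printed with a TATAAA run in capitals. These letters begin 33 bases before the start. Among the 7 windows only that of Cebpb held TATAAA on either strand, and 14.2% of all windows did.
Cebpb: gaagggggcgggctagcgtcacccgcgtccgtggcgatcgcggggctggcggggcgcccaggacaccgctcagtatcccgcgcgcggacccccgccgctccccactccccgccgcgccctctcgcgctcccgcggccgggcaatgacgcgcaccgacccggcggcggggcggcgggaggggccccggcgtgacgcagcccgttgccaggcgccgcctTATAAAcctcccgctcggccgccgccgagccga

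Signals are given as the deposited log2 values, in which a difference of 1 is a fold of 2. Array medians lay between 5.57 and 5.73, and 33.0% to 40.9% of the clusters of an array exceeded its highest background probe set, which stood at 6.39 to 7.20. Markers of skeletal muscle fibres averaged 19.3 to 19.7 on every array, and the 4 liver markers were below the highest background on all arrays. A change is the difference of 2 group means, with its standard error (SE) taken from 1 limma model over all clusters. A change was called at a Benjamini-Hochberg adjusted p under 0.05 over the 23188 clusters. An exact permutation test of 4 arrays against 4 (two-sided, 70 splits) cannot go below 0.0286, the value of any comparison in which the groups do not overlap in the direction of their means. In such bulk samples, fewer cells of a type and less RNA per cell cannot be told apart.

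In V12/CON, 7 of the 9 genes were upregulated and 1, Lifr, was downregulated, beside 7.68% of all clusters higher and 8.67% lower. The groups did not overlap for 8 of the 9, against 16.4% of all clusters. The median change of the 9 was 1.59, and that of all clusters 0.03. In S-V12/V12, 6 of the 9 rose and 0 fell, beside 8.05% of all clusters higher and 6.66% lower, and the groups did not overlap for 6 of the 9, against 19.8%. With array median centring the split of all clusters in S-V12/V12 moved from 1866 higher and 1544 lower to 2245 and 1206. In E-V12/S-V12 none of the 9 was called in either direction, beside 1.19% of all clusters higher and 1.51% lower. There 3 of the 9 had an unadjusted p under 0.05, all with a lower mean, beside 8.84% of all clusters lower and 7.75% higher at that threshold, and the methods' t-test after adjustment called 0. That test, as run, may not be the one behind the paper's printed p-values, as described with the processing. The study's own rule asks for a fold of 2 and an unadjusted p under 0.05. By it the V12/CON members divided into 7 higher and 1 lower (3.47% and 4.48% of all clusters), and those of S-V12/V12 into 5 and 1 (3.87% and 2.4%). For E-V12/S-V12 the rule gave 0 and 2 (0.884% and 1.01%), and for E-V12/CON 7 and 2 (5.75% and 6.27%).

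**Figure D1:**
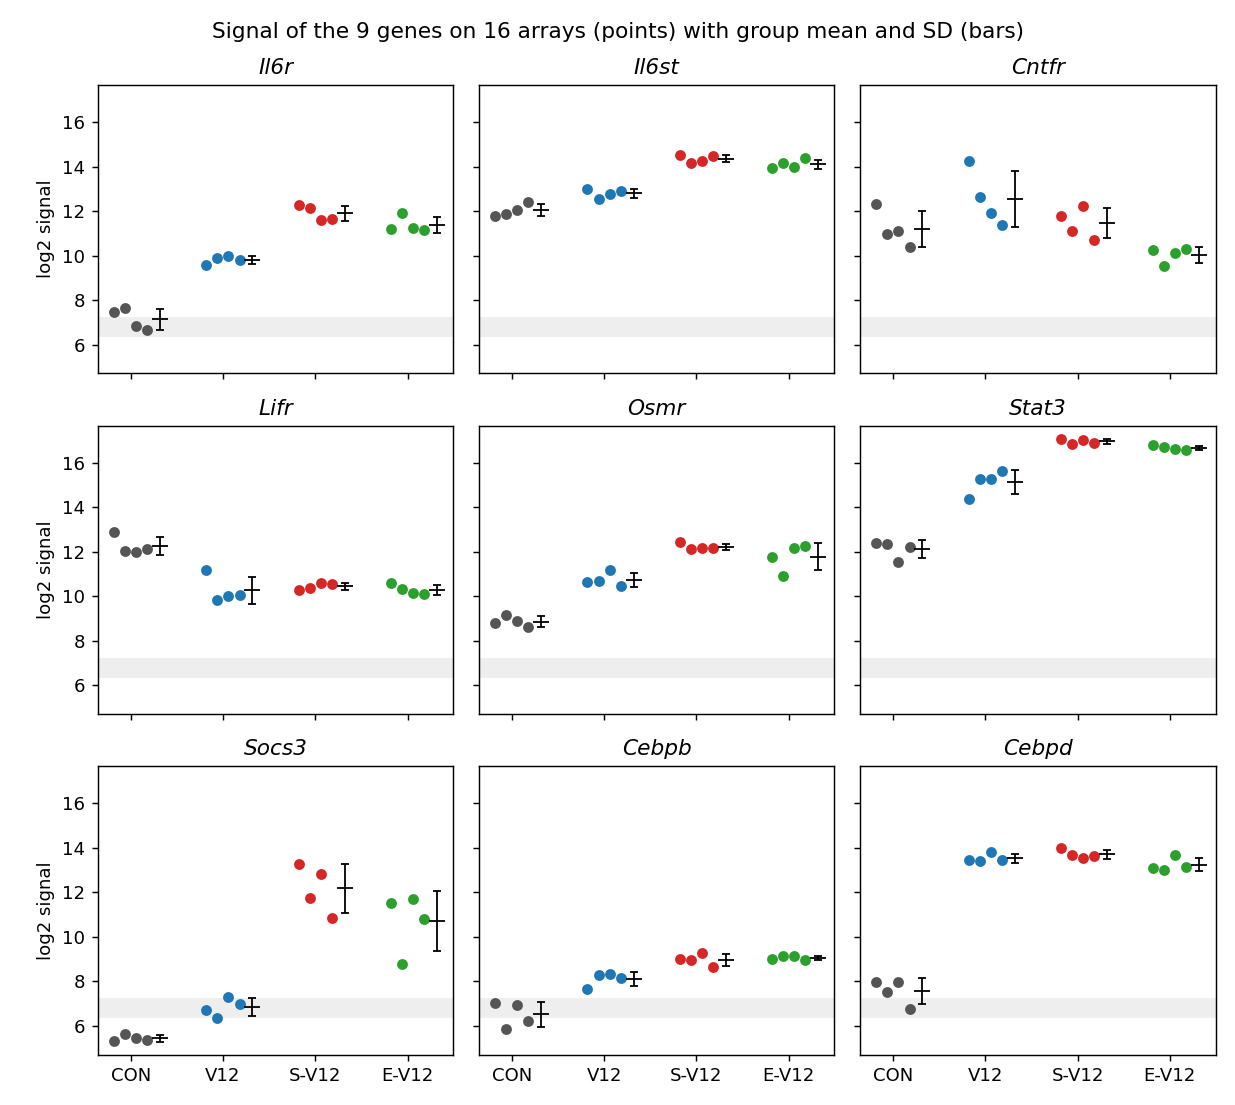
Log2 signal of each of the 9 genes (y axis) on the 16 arrays by group (x axis); points are arrays, the bars beside them the group mean and SD, and the grey band the range over arrays of the highest background probe set (6.39 to 7.20). Stat3 and Il6r climbed from CON to V12 and again to S-V12, Cebpd was high in all 3 ventilated groups, and Lifr was low in all 3.

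Among the receptors, Il6r encodes the chain that binds IL-6 itself. Its signal on the 4 CON arrays was 7.45, 7.63, 6.84 and 6.66, and 3 of the 4 exceeded the highest background. It was 9.58, 9.88, 9.99 and 9.81 in V12, 12.27, 12.13, 11.60 and 11.65 in S-V12, and 11.21, 11.91, 11.22 and 11.14 in E-V12. The CON arrays were lowest, the V12 arrays followed, and the arrays of both operated groups lay above all V12 arrays. Il6r rose by 2.67 ± 0.24 (SE, n = 4) in V12/CON, a fold of 6.36 (limma, adjusted p = 2.81e-08), and by a further 2.10 ± 0.24 in S-V12/V12 (adjusted p = 4.24e-06).

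Il6st encodes gp130, the chain shared by the family's receptors. Its CON signals were 11.77, 11.89, 12.06 and 12.39, and its V12 signals 13.00, 12.53, 12.79 and 12.92. In S-V12 they were 14.53, 14.18, 14.27 and 14.46, and in E-V12 13.92, 14.14, 13.98 and 14.38. The groups were ordered as for Il6r, with smaller steps between them. Il6st rose by 0.78 ± 0.19 in V12/CON (limma, adjusted p = 0.00519) and by 1.55 ± 0.19 in S-V12/V12 (adjusted p = 8.93e-06), a fold of 2.92. The V12/CON step did not pass in the methods' t-test after adjustment (adjusted p = 0.0540).

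Osmr, the receptor of oncostatin M, had signals of 8.80, 9.17, 8.90 and 8.60 in CON and of 10.63, 10.68, 11.18 and 10.47 in V12. They reached 12.42, 12.11, 12.17 and 12.16 in S-V12 and 11.75, 10.93, 12.17 and 12.28 in E-V12. The S-V12 arrays lay within a narrow range, whereas the second E-V12 array fell among the V12 values. Osmr rose by 1.87 ± 0.25 in V12/CON (limma, adjusted p = 8.21e-06) and by 1.48 ± 0.25 in S-V12/V12 (adjusted p = 0.000249), and was 10.2-fold higher in S-V12 than in CON.

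Lifr encodes the receptor chain of leukaemia inhibitory factor, which also joins the ciliary neurotrophic factor receptor. It was the 1 member that was downregulated: its signals were 12.89, 12.03, 12.00 and 12.12 in CON and 11.17, 9.84, 10.03 and 10.04 in V12. The S-V12 signals were 10.28, 10.36, 10.59 and 10.54, and the E-V12 signals 10.60, 10.31, 10.15 and 10.12. All CON arrays exceeded all ventilated arrays, and the 3 ventilated groups overlapped. In V12/CON the signal of Lifr fell by 1.99 (SE 0.26), which is 3.97-fold (limma, adjusted p = 6.22e-06). Between S-V12 and V12 the difference was 0.17, with a 95% interval of -0.36 to 0.70 (adjusted p = 0.734). Osmr and Lifr are neighbouring protein-coding genes on rat chromosome 2 (GRCr8), and they moved in opposite directions in V12/CON.

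Cntfr encodes the chain that binds ciliary neurotrophic factor, and its arrays varied widely within CON, V12 and S-V12. Its signals were 12.30, 10.95, 11.12 and 10.40 in CON, 14.25, 12.64, 11.93 and 11.37 in V12, 11.76, 11.10, 12.25 and 10.72 in S-V12, and 10.25, 9.52, 10.11 and 10.29 in E-V12. CON and V12 overlapped, whereas every E-V12 array lay below every array of the other 3 groups. The V12/CON change of 1.36 ± 0.46 passed by a small margin (limma, adjusted p = 0.0484) and failed in the exact permutation test (p = 0.114). Without V12 replicate 1 it was 0.79 (adjusted p = 0.200), and its call was lost in 11 of the 16 fits that left out a single array, CON replicates 2, 3 and 4 and V12 replicate 2 among them. It was also lost with array median centring (adjusted p = 0.0614), quantile normalization (0.0530), only the 2 groups (0.0871), trended robust variances (0.121) and the methods' t-test (0.366). In E-V12/V12, by contrast, Cntfr fell by 2.51 (SE 0.46; adjusted p = 0.00122), a call that the methods' t-test did not give after adjustment (adjusted p = 0.104).

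STAT3 is the transcription factor that gp130 signalling activates, and its gene is itself one of its targets. Stat3 signals were 12.40, 12.34, 11.55 and 12.23 in CON and 14.35, 15.25, 15.29 and 15.63 in V12. They rose to 17.08, 16.84, 17.02 and 16.90 in S-V12 and were 16.78, 16.71, 16.63 and 16.56 in E-V12. None of the 4 groups overlapped with another. Stat3 was upregulated by 3.0 ± 0.24 in V12/CON (8.01-fold; limma, adjusted p = 3.61e-09) and by 1.83 ± 0.24 in S-V12/V12 (3.55-fold; adjusted p = 1.56e-05). From CON to S-V12 the fold was 28.5.

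Socs3, the feedback inhibitor of the receptors and their kinases, had the largest S-V12/V12 change among the 9. Its CON signals were 5.34, 5.66, 5.46 and 5.35, all below the highest background of their arrays. In V12 they were 6.73, 6.36, 7.31 and 6.99, of which 3 of 4 exceeded it, and in S-V12 13.29, 11.77, 12.82 and 10.85. The E-V12 signals were 11.54, 8.78, 11.72 and 10.80. CON lay below and V12 close to the background, both operated groups were bright, and the spread within these was the widest among the 9 genes. Socs3 rose by 5.33 ± 0.49 in S-V12/V12 (40.3-fold; limma, adjusted p = 5.46e-07) and was 14.5-fold higher in E-V12 than in V12 (adjusted p = 3.23e-05). Against the mean of the highest background in CON, it was at least 46.7-fold higher in S-V12. The S-V12/CON change in the deposited signals was called (limma, adjusted p = 5.32e-10), and the bound itself was not tested. The V12/CON change of 1.40 ± 0.49 was not called (adjusted p = 0.0558) although the groups did not overlap, and against the CON background it was at least 1.16-fold. It was called with a fit of only the 2 groups (adjusted p = 6.07e-04), with the methods' t-test after adjustment (0.0214), and with the dimmest 25% of clusters left out (0.0482).

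Cebpb encodes a C/EBP factor first known as an activator of the IL-6 gene and of acute-phase genes. Its CON signals were 7.05, 5.88, 6.95 and 6.23, of which 1 of 4 exceeded the highest background, and its V12 signals 7.68, 8.28, 8.34 and 8.15. In S-V12 they were 9.02, 8.98, 9.29 and 8.64, and in E-V12 9.0, 9.15, 9.13 and 8.95. The 3 groups CON, V12 and S-V12 followed each other without overlap. Cebpb rose by 1.59 ± 0.24 in V12/CON (limma, adjusted p = 4.40e-05) and by 0.87 ± 0.24 in S-V12/V12 (adjusted p = 0.0151). The second step lost its call without V12 replicate 1 (adjusted p = 0.0574) or S-V12 replicate 3 (0.0549).

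Cebpd, whose product is a C/EBP factor that responds quickly to IL-6 and to glucocorticoids, had the largest V12/CON change among the 9. Its signals were 7.99, 7.54, 7.97 and 6.78 in CON and 13.46, 13.43, 13.83 and 13.44 in V12. In S-V12 they were 14.01, 13.67, 13.54 and 13.62, and in E-V12 13.09, 13.03, 13.66 and 13.15. All ventilated arrays lay far above all CON arrays, and the ventilated groups overlapped. The V12/CON change was 5.97 ± 0.24, a fold of 62.6 (limma, adjusted p = 4.31e-14). The S-V12/V12 difference was 0.17, with a 95% interval of -0.32 to 0.66 (adjusted p = 0.709). By the adjusted threshold, then, Cebpd was called in V12/CON and not in S-V12/V12, and Socs3 in S-V12/V12 and narrowly not in V12/CON. Whether the steps of the 2 genes differ was not tested.

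**Figure D2:**
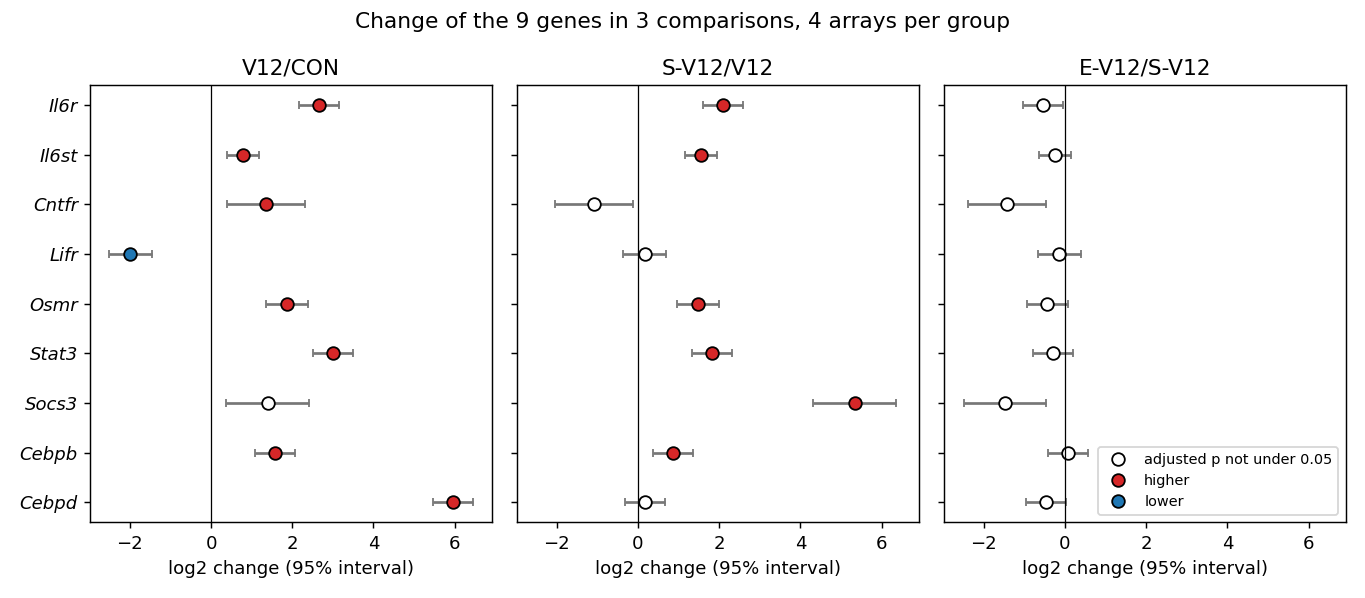
Log2 change with its 95% interval (x axis) of each of the 9 genes (y axis) in V12/CON, S-V12/V12 and E-V12/S-V12, from the limma model with 4 arrays per group; filled points passed an adjusted p under 0.05. Cebpd changed by 5.97 in V12/CON and by 0.17 in S-V12/V12, Socs3 by 5.33 in S-V12/V12, and no point is filled in E-V12/S-V12.

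E-V12/S-V12 compares rats with the same operation, with and without current. Of the 9 genes, 8 had a lower mean in E-V12 and 0 passed the adjusted threshold. Cntfr was lower by -1.42 ± 0.46, with a 95% interval of -2.38 to -0.46 and groups that did not overlap (limma, adjusted p = 0.10; exact permutation p = 0.0286). It was called with only the 2 groups in the fit (adjusted p = 0.0197) and with array weights (0.0292). With the replicate number as a block it was called too (0.0409), and by the study's fold of 2 with an unadjusted p under 0.05. Without V12 replicate 1, an array of neither group, it was called as well (0.0381). So it was in a fit added after seeing the data, without replicate 1 of CON and of V12 (0.00923). No other fit without a single array called it, with adjusted p up to 0.247. Nor was it called with array median centring, quantile normalization, trended robust variances or the methods' t-test (adjusted p = 0.123). Socs3 had a change of -1.47 ± 0.49 and overlapping groups (95% interval -2.49 to -0.45, adjusted p = 0.108). Without E-V12 replicate 2 its change was -0.83. Il6r had a change of -0.54 (interval -1.04 to -0.048, adjusted p = 0.247). The Stat3 groups did not overlap, at a change of -0.29 (interval -0.78 to 0.19, adjusted p = 0.590). Groups that do not overlap were found for 2 of the 9 genes, against 13.5% of all clusters. The intervals of Il6st (-0.64 to 0.14), Lifr (-0.67 to 0.39), Osmr (-0.94 to 0.076), Cebpb (-0.42 to 0.57) and Cebpd (-0.97 to 0.019) reached both sides of 0. The poly-A spike controls, added RNA carried through labelling, averaged 6.99 ± 0.14 (SD, n = 4) in S-V12 and 5.98 ± 0.19 in E-V12; their part in these differences was not tested.

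E-V12/V12 shares its arrays with both comparisons. Il6r, Il6st, Osmr, Stat3, Socs3 and Cebpb were higher in E-V12 and Cntfr was lower, 6 and 1 of 9, beside 4.75% and 3.81% of all clusters. The changes were 1.56 for Il6r, 1.30 for Il6st, 1.04 for Osmr, 1.54 for Stat3 and 0.94 for Cebpb (limma, adjusted p = 0.000223, 0.000124, 0.00876, 0.000224 and 0.0139). That of Osmr came with overlapping groups and was not called by the methods' t-test after adjustment (adjusted p = 0.168). That of Cebpb lost its call without V12 replicate 1 (limma, adjusted p = 0.0606). Against CON, 7 genes were higher and Lifr lower in S-V12 (12% of all clusters higher, 12.8% lower) as well as in E-V12 (10.9% and 12.6%). The S-V12/CON folds were 70.4 for Cebpd and 27.2 for Il6r. Cntfr was the member not called against CON, with a change of 0.27 in S-V12 (adjusted p = 0.756) and -1.15 in E-V12 (adjusted p = 0.0780). The latter was called without V12 replicate 1 (adjusted p = 0.0230), an array of neither group, or CON replicate 4 (0.0441). The methods' t-test did not call it (adjusted p = 0.147).

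Some markers of other cell types also differed between the groups. The 8 macrophage markers averaged 5.76 to 6.61 on the CON arrays, 6.38 to 7.67 in V12, 7.76 to 8.35 in S-V12 and 7.21 to 7.96 in E-V12. In V12/CON 4 of them rose (Cd68, Cd163, Mrc1 and Cd14) and Adgre1 fell while below background in every group, and in S-V12/V12 3 rose (Itgam, Lyz2 and Cd14). Of the 8, the number below the highest background on all arrays was 4 in CON, 2 in V12, 1 in S-V12 and 3 in E-V12. The 7 neutrophil markers averaged 3.99 to 4.24 in CON, 4.21 to 4.46 in V12, 4.45 to 4.89 in S-V12 and 4.42 to 6.01 in E-V12, and all 7 were below background in CON and V12. In V12/CON 2 of 6 smooth muscle and pericyte markers fell, Tagln by 2.04 and Myh11 by 1.15. Of the 7 endothelial markers 1, Pecam1, rose by 0.85, whereas the median change of the 7 was -0.48. Pdgfra, 1 of 6 fibroblast markers, rose by 1.77 in S-V12/V12, where the median of the 6 was 0.14. Pecam1 fell by 1.08 in E-V12/S-V12 (limma, adjusted p = 0.0322), where the endothelial median was -0.50. Of the 8 muscle fibre markers, 1 (Myl1) fell, by 0.64 in S-V12/V12. The fibre markers lay near the top of the measured range: Acta1 averaged 19.93 in E-V12 with an SD of 0, the highest value on any array. Changes of markers this bright may not be seen. The part of these cells in the changes of the 9 genes was not tested.

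Around the 9 genes, 58 of 67 listed genes of the pathway were measured. In V12/CON 14 of the 58 rose and 8 fell, beside 7.68% and 8.67% of all clusters, and their median change was 0.16. None of the 7 measured ligands was called, and 1 of them, Osm, had an unadjusted p under 0.05 (limma, adjusted p = 0.0895). Ctf1, which encodes cardiotrophin 1, was the only ligand above the highest background on all 16 arrays, and Il6 was below it on every array. Of the 4 Janus kinases, Jak2 rose by 1.27 ± 0.23 (limma, adjusted p = 0.000434) and Jak1 fell by 0.53 (SE 0.18; adjusted p = 0.0460). Of the 5 other STAT factors, 0 rose and 2 fell, Stat5a by 1.36 (adjusted p = 0.000106) and Stat5b by 1.13 (0.000824). Stat5a and Stat5b encode the factors that carry growth hormone signals.

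The inhibitors in V12/CON split, with 2 of 14 higher and 4 lower, beside 7.68% and 8.67% of all clusters. Cish and Socs2, SOCS family genes that STAT5 is known to induce, were both lower, and their CON and V12 arrays overlapped. Socs2 fell by 1.47 (SE 0.30; limma, adjusted p = 0.00117). Cish exceeded the highest background on 3 of 4 CON arrays and 1 of 4 V12 arrays, so the size of its change, -2.92 ± 0.54 (adjusted p = 0.000461), was read in part from signals that background also reaches. Socs6 fell by 1.27 (adjusted p = 0.000305), and Ptpn2, a phosphatase of Janus kinases and STAT factors, rose by 1.03 ± 0.21 (0.00129). Socs3 thus differed in sign from Cish, Socs2 and Socs6, although its own change was not called. None of the 4 other C/EBP factors was called in V12/CON, and 0 of them had an unadjusted p under 0.05.

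Of 22 measured targets of STAT3 and C/EBP, 11 rose and 1 fell in V12/CON, beside 7.68% and 8.67% of all clusters. Their median change was 0.68. Bcl2l1, which encodes the survival protein Bcl-xL, ran from 9.11 to 10.03 in CON and from 13.0 to 13.7 in V12 and rose by 3.79 ± 0.22 (limma, adjusted p = 3.31e-11). Myc and Junb, early response transcription factors, were below the highest background on all CON arrays and above it on all V12 arrays. Myc was at least 21.6-fold higher and Junb at least 11.9-fold. Their adjusted p-values (limma, 1.20e-10 and 4.63e-10) belong to the changes in the deposited signals and not to these bounds. Cp, which encodes the acute-phase protein ceruloplasmin, rose by 3.15 ± 0.23 (adjusted p = 8.18e-10). The target that fell, named after its value was seen, was Ccnd1, which encodes cyclin D1 (-0.97 ± 0.20, adjusted p = 0.00118). Ccnd1 was below the highest background on every array of all groups, so its change was read from signals that background also reaches.

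**Figure D3:**
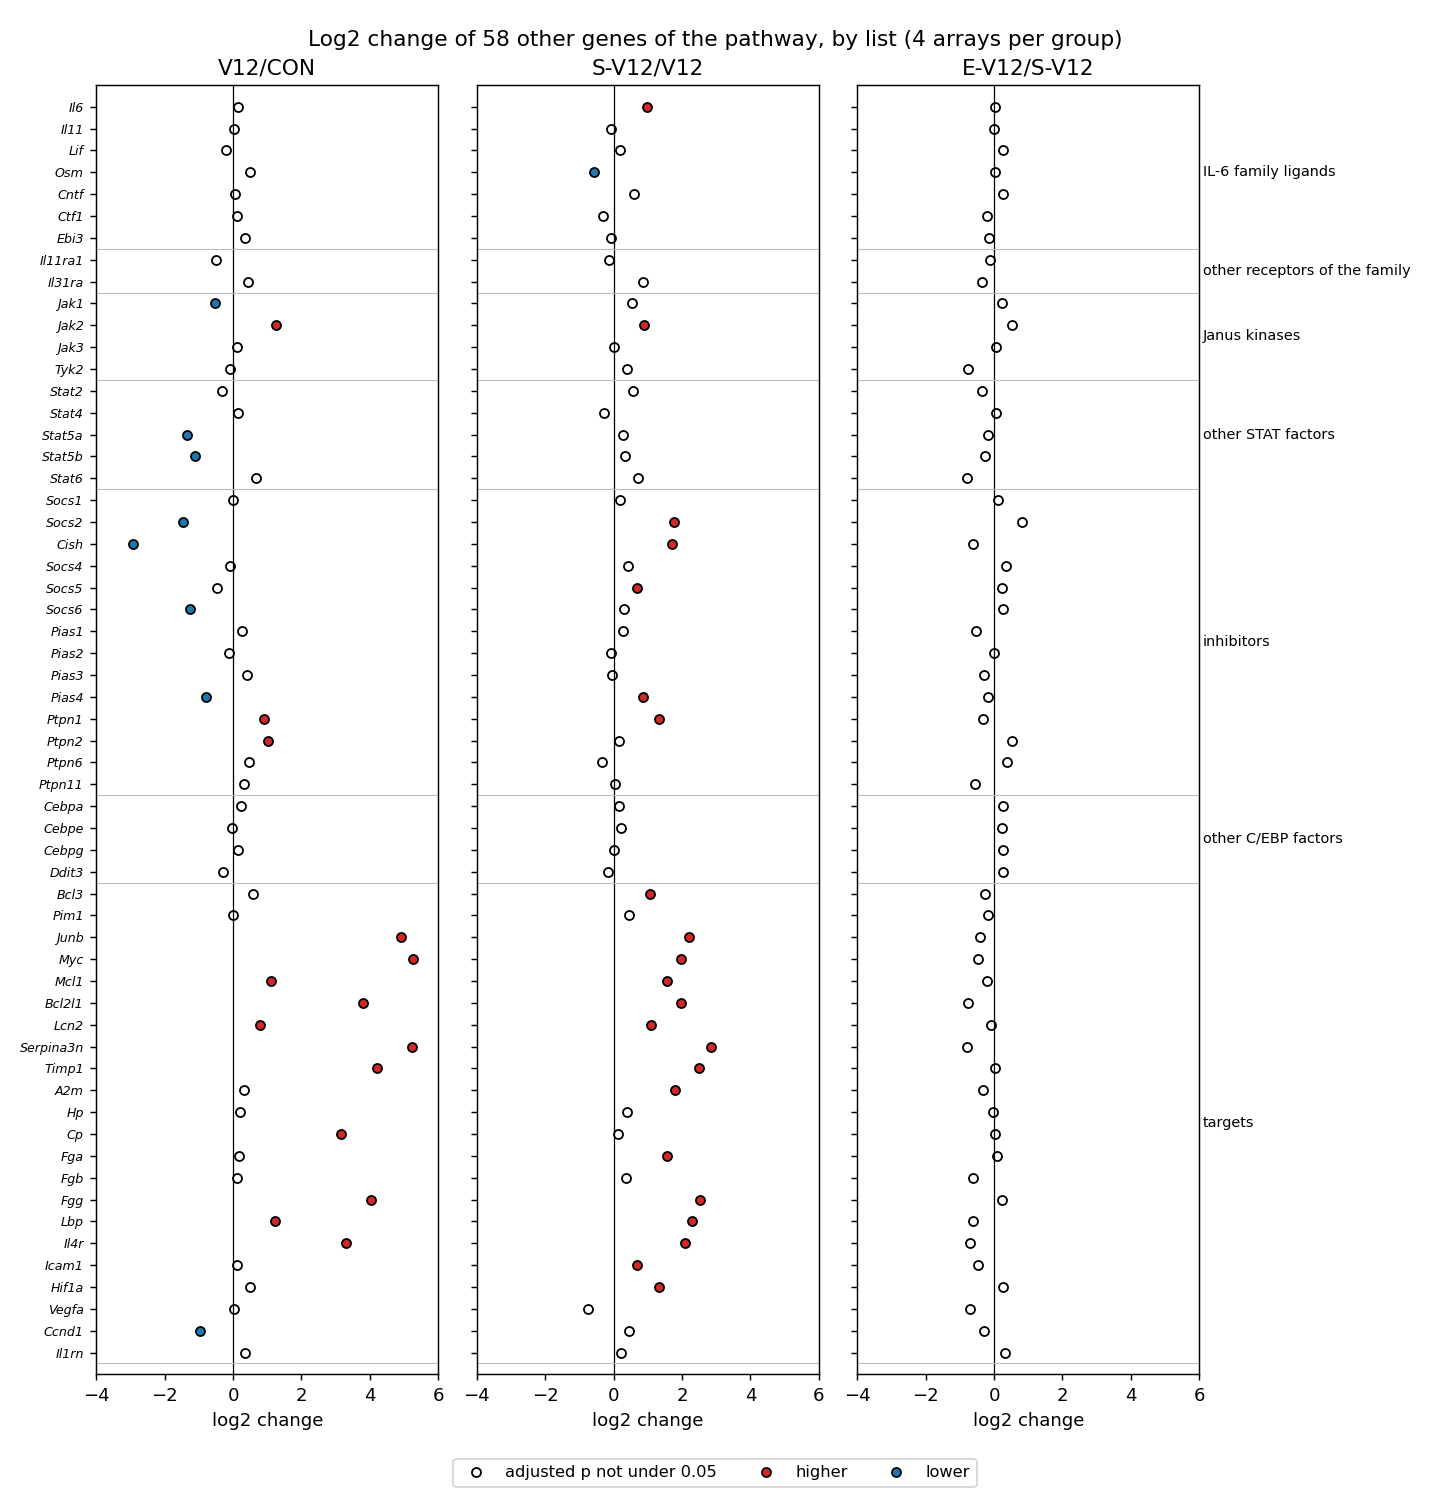
Log2 change (x axis) of the 58 other genes of the pathway (y axis), grouped by list, in V12/CON, S-V12/V12 and E-V12/S-V12, from the limma model with 4 arrays per group. Filled points passed an adjusted p under 0.05: red points were higher (14, 22 and 0) and blue points lower (8, 1 and 0).

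In S-V12/V12, 22 of the 58 rose and 1 fell, beside 8.05% and 6.66% of all clusters, with a median change of 0.43. Of the 22 targets 15 rose and 0 fell, with a median of 1.45. Some of these rises were read from dim signals. A2m and Bcl3 (limma, adjusted p = 0.000135 and 0.0121) were below the highest background on all V12 arrays. Their S-V12 means did not exceed the mean of that V12 background (0.990-fold and 0.959-fold). Lcn2 and Icam1, also with higher S-V12 means, were below the highest background on every array of all groups. Bcl2l1 rose by 1.99 ± 0.22 (limma, adjusted p = 3.74e-06), Mcl1, another survival gene of the same family, by 1.56 ± 0.19 (9.97e-06), Junb by 2.19 ± 0.34 (0.000120) and Il4r, the interleukin-4 receptor chain, by 2.08 ± 0.33 (0.000132). All 4 had also risen in V12/CON, whereas Cp had a change of 0.12 (interval -0.35 to 0.59). Both comparisons use the V12 arrays, so their values are not independent.

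Inhibitors rose in 5 of 14 cases in S-V12/V12 and fell in 0, beside 8.05% and 6.66% of all clusters. Ptpn1 rose by 1.32 ± 0.22 (limma, adjusted p = 0.000261), Socs2 by 1.75 ± 0.30 (0.000324), Pias4 by 0.86 ± 0.21 (0.00565) and Socs5 by 0.69 ± 0.20 (0.0223). The fifth, Cish, was higher with overlapping groups (1.71 ± 0.54, adjusted p = 0.0360), again against V12 arrays of which 1 of 4 exceeded the highest background. Jak2 rose again, by 0.90 ± 0.23 (0.0104), and none of the 5 other STAT factors was called, although Stat2 and Stat6 had unadjusted p-values under 0.05. Of the ligands, Il6 rose by 0.99 ± 0.22 (0.00349) and Osm, which encodes oncostatin M, fell by 0.57 (0.0483). Both were below the highest background on all 16 arrays, and the call of Osm was lost with array median centring, with quantile normalization, with trended robust variances and in 12 of the 16 fits without a single array.

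In E-V12/S-V12 none of the 58 was called. With an unadjusted p under 0.05 there were 3 higher and 8 lower genes, where 7.75% and 8.84% of all clusters had such a p, and the methods' t-test after adjustment called 0. The lowest adjusted p was that of Bcl2l1, with a change of -0.76 ± 0.22 and groups that did not overlap (limma, adjusted p = 0.0670). The median change was -0.28 for the 22 targets and -0.43 for the 9 genes, beside 0.02 for all clusters.

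**Figure D4:**
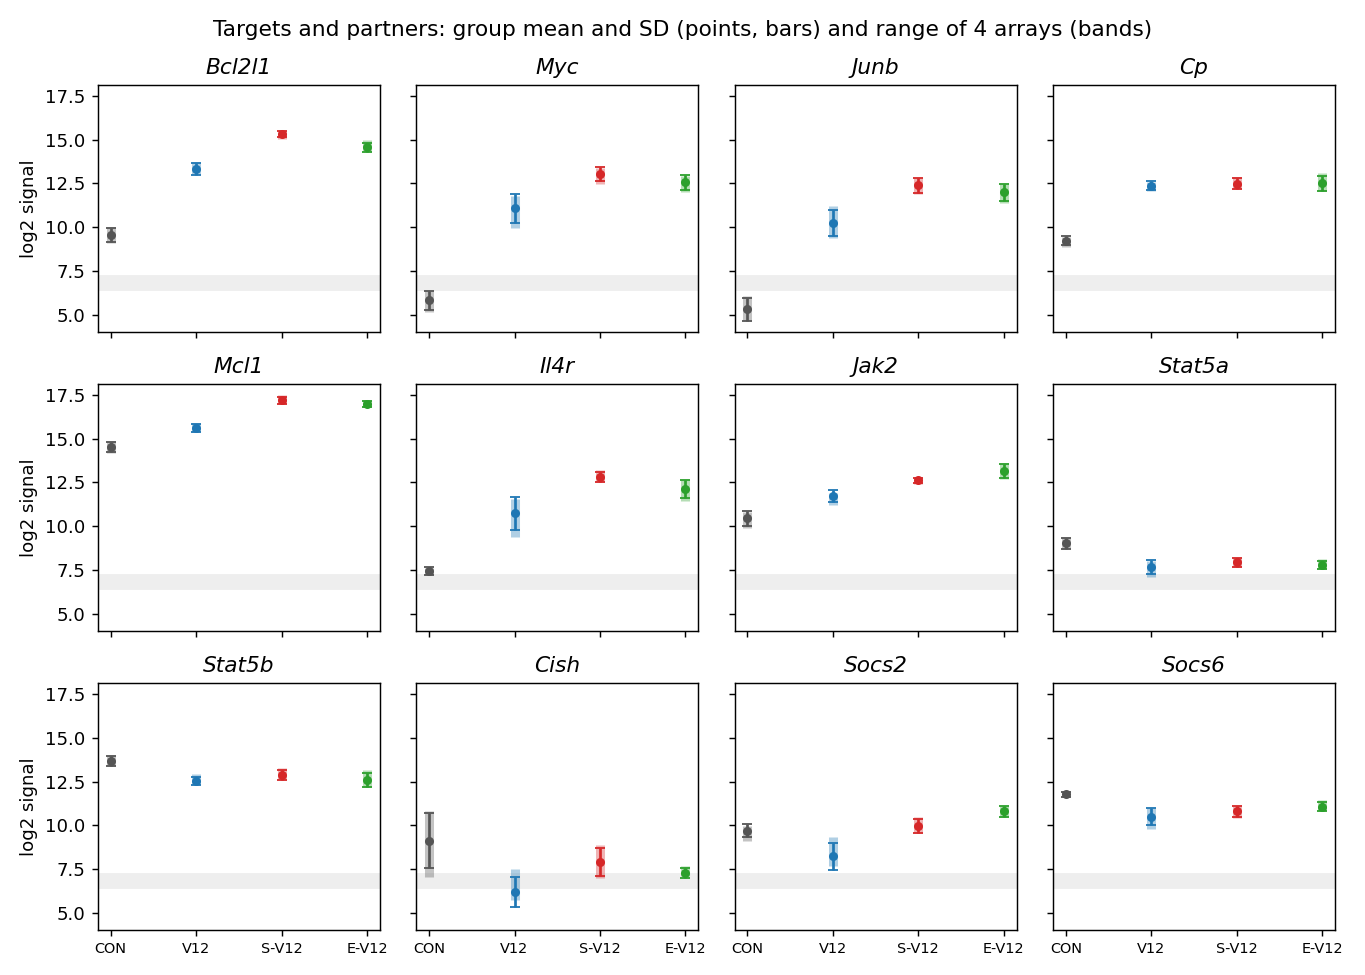
Log2 signal (y axis) of 12 pathway genes, each called in V12/CON or S-V12/V12, by group (x axis); points and bars are the mean and SD of 4 arrays, bands their range, and the grey band the range over arrays of the highest background probe set (6.39 to 7.20). Myc and Junb lay below background in CON, and Socs2 was lower in V12 (mean 8.21) than in CON (9.68) and S-V12 (9.97).

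Across the 16 arrays, which differ mainly by group, Stat3 and Il6r had a Pearson correlation of 0.982, and Lifr and Cebpd of -0.910. These describe shared group differences and are no independent evidence. After the group means were removed, the 36 pairs of members had correlations from -0.48 (Cntfr and Stat3) to 0.72 (Cntfr and Lifr), and that of Stat3 and Il6r was 0.39. Among 15003 other genes the profile most like that of Stat3 was Pvr (0.995), followed by Mapk14 (0.994) and Nfx1 (0.992). Cebpd was most like Fkbp5 (0.994), Mt2A (0.992) and Mt1 (0.989), and Socs3 most like Ptx3 (0.967). The nearest profiles were Tp53inp1 for Il6r (0.988), Kbtbd8 for Il6st (0.983), Fndc3b for Osmr (0.988), Ncf1 for Lifr (0.973) and Arrdc3 for Cebpb (0.972). Cntfr was most like Dennd6b (0.931), and this held within groups (0.914).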

How the data were processed

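The values are those of 16 Clariom S arrays. The authors deposited a log2 signal for each transcript cluster, normalized with SST-RMA in Transcriptome Analysis Console; this scales arrays to a common intensity, so a shift shared by all genes would not be seen. The signals were used as deposited. Of 24834 entries, 1646 control probe sets were left out, and 23188 clusters remained, of which 15049 carried a gene symbol. A single limma (version 3.58.1, R 4.3.3) model of the 4 group means gave all comparisons, with Benjamini-Hochberg adjustment over all clusters. The highest of 23 background probe sets marked dim signals. For a gene below it on every array of a group, a fold of at least a given size was taken against the group's mean of that highest background. The number of arrays limits the precision, and the limma and t-test p-values set a difference of group means against the spread between arrays.

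The members and gene lists were chosen with earlier results of these data known. All members were named, and by rule of each list and comparison up to 4 genes with the smallest adjusted p under 0.05. Some further genes, such as Cish, Stat2 and Stat6 in S-V12/V12, were named outside this rule after their values were seen. Of the 3 genes most correlated with each member, the nearest was always given and the others only for some members. The TATAAA search was added after the sequence was read. The alternatives were array median centring, quantile normalization, the dimmest 25% of clusters left out, the 2 groups only, trended robust variances, array weights, the methods' t-test, a fold of 2 with an unadjusted p under 0.05, the dimmest cluster per symbol, a replicate block and each array left out. As run, the setting of the dimmest cluster per symbol repeated the main fit on the same rows, and each member has 1 cluster. It is therefore no check of the results. The limma model was tested on simulated data. For the members compared, the paper's printed p-values equal the unadjusted limma p to the digits printed. In V12/CON these were 1.3e-11 for Stat3 and 1.1e-06 for Cebpb. In S-V12/V12 they were 2.8e-10 for Socs3 and 1.2e-08 for Il6r. The test named in the methods, as run here, may therefore not be the one that gave the paper's values.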

Additional observations from a re-analysis of the deposited data

Results flagged for a closer look

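Of 36 groups of 4 arrays, 4 held an array that stood apart from the other 3 by Dixon's criterion, and chance marks about 1 group in 20. Il6r in E-V12 replicate 2 was 11.91, with the other arrays at 11.14 to 11.22. Lifr in CON replicate 1 was 12.89, with the others at 12.00 to 12.12, and in V12 replicate 1 it was 11.17, with the others at 9.84 to 10.04. Cebpd in V12 replicate 3 was 13.83, with the others at 13.43 to 13.46. No change of these 3 genes that was called lost its call when any 1 array was left out.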

How the results depend on the processing

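No called change turned its sign. Of the changes of the members under all settings 1409 kept their side of the threshold, 24 gained a call and 25 lost it. The 1409 include the setting of the dimmest cluster per symbol, which could not change a member. Setting by setting, the counts of genes that moved by over 1.5 times were as follows. With the methods' t-test after adjustment, the V12/CON pathway genes were 9 higher and 4 lower in place of 14 and 8, and 0 members in place of 1 were lower in E-V12/V12. With a fold of 2 and an unadjusted p, 5 pathway genes were lower in V12/CON, 0 were lower in S-V12/V12, while 1 member was lower in S-V12/V12, 2 in E-V12/S-V12 and 2 in E-V12/CON. With only the 2 groups compared, 1 member and 1 pathway gene were lower in E-V12/S-V12 and 2 members in E-V12/CON; array weights gave 1 and 1 in E-V12/S-V12. Trended robust variances gave 1 lower pathway gene in E-V12/S-V12 and 0 in S-V12/V12, and array median centring and quantile normalization gave 0 in S-V12/V12. After seeing the data, a fit without replicate 1 of CON and of V12 was added; in it these were 0 in S-V12/V12 and 1 in E-V12/S-V12, with 1 lower member in E-V12/S-V12. The cause of these moves was not tested.

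Replicate numbers did not pair the arrays: over 24 pairs of same-numbered arrays, correlations of deviations ran from -0.09 to 0.11. In V12/CON all 4 were above 0 (0.025 to 0.11) and each array correlated best with its own number, a hint from the data and not from the design. With the replicate number as a block, calls over all clusters in V12/CON were 3721 in place of 3791, 1 member was lower in S-V12/V12, 1 in E-V12/S-V12 and 2 in E-V12/CON, 0 pathway genes were lower in S-V12/V12, and Socs3 passed in V12/CON (adjusted p = 0.0283).

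With each array left out in turn, members higher numbered 6 to 8 in V12/CON, 5 to 6 in S-V12/V12 and 5 to 6 in E-V12/V12. Members lower numbered 0 to 1 in S-V12/V12 (1 without V12 replicate 4), 0 to 1 in E-V12/S-V12 (1 without V12 replicate 1) and 1 to 2 in E-V12/CON. Pathway genes numbered 12 to 15 higher and 7 to 8 lower in V12/CON, 20 to 23 higher and 0 to 1 lower in S-V12/V12, and 0 to 1 lower in E-V12/S-V12 (1 without CON replicate 1). Signals near background, such as those of Il6, Osm and Socs3 in CON, limit their changes.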
